A study of Mus musculus with 49 samples.

Results

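The cytosolic ribosomal protein genes were taken as every row whose symbol is Rpl or Rps followed by a number (with an optional a, x or l), together with Rplp0, Rplp1, Rplp2 and Rpsa. This gave 79 of the 13093 genes in the table, 47 of the large and 32 of the small ribosomal subunit. Fau, which encodes a protein of the small subunit fused to a ubiquitin-like sequence, carries another symbol and is given separately. The study sequenced the RNA of 49 single cells from the metanephric mesenchyme of mouse embryos at 11.5 dpc (days post coitum). The mesenchyme is the embryonic tissue around the ureteric bud from which the nephrons and the stroma of the kidney arise. All cells carried the genotype Tg(Crym-EGFP)82Gsat, a transgene that marks Crym-expressing cells with green fluorescence and guided the microdissection. The strain is labelled as a mixed background and the sex as both, at Theiler stage 19, and the labels name no embryo or litter. All cells are therefore 1 group and 1 sample: cells are not replicates, no p-value was computed, and every difference is a description of these cells.

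The ribosome translates messenger RNA, and each of its cytosolic proteins is encoded by a separate gene outside the ribosomal RNA repeats. The large subunit forms the peptide bond and carries the stalk proteins Rplp0, Rplp1 and Rplp2 that engage elongation factors, and the small subunit decodes the message. Transcripts of these genes typically begin with a run of pyrimidines (C and T), the terminal oligopyrimidine tract, through which growth signals set their translation. Progenitors marked by Six2 form the nephrons, and cells marked by Foxd1 form the renal stroma.

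RefSeq start sites were at hand for 59 of the 79 members, and the windows below, from 40 bases before to 20 after the annotated start, are shown because the tract lies there and the members vary together between cells. Sequences are from RefSeq on GRCm38.p6, read 5′ to 3′ on the strand of the gene. Capitals mark the longest run of C or T anywhere in the window, or the first where runs are equally long. Rps25 (chr9:44407674-44407733, plus strand), Rps18 (chr17:33955646-33955705, minus), Rpl41 (chr10:128549149-128549208, minus) and Rps28 (chr17:33824543-33824602, minus) are among the members whose level followed the others most closely. Rps10 (chr17:27635225-27635284, minus) and Rpl36al (chr12:69184048-69184107, minus) are among the members that followed the others least. Rpl7a (chr2:26910767-26910826, plus) is shown by the same choice, as another member that followed the others weakly (median rho 0.169). Rps27 (chr3:90213629-90213688, minus) and Rps27l (chr9:66946046-66946105, plus) are a pair of paralogs. Rps27l has another listed start, whose window (chr9:66946373-66946432, plus) has a longest run of 5 bases and is not shown.
Rps25: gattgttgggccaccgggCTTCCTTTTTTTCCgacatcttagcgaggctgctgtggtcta
Rps18: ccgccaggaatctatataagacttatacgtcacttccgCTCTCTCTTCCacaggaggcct
Rpl41: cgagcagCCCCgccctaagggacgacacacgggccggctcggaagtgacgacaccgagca
Rps28: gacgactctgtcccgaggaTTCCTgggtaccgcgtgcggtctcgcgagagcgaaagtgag
Rps10: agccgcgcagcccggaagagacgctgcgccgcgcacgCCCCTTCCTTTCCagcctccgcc
Rpl36al: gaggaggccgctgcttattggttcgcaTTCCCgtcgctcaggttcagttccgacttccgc
Rpl7a: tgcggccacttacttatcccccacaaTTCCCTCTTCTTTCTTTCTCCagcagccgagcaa
Rps27: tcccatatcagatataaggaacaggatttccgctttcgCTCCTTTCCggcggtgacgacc
Rps27l: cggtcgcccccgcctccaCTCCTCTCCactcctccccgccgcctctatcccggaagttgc

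Runs of pyrimidines were longer at the members' starts than at those of the other genes. Within 50 bases centred on the start, the longest run of C or T on the sense strand had a median of 9 bases over the 59 members, with a range of 3 to 21. Over the 10190 genes of the table with a RefSeq start the median was 5. A run of 8 or more stood in 31 of 59 members (52.5%) against 22.7% of all those genes. The letters CTTTCC on the sense strand of the same 50 bases were found in 10 members (16.9%) against 2.86%. In the full 300 bases on both strands, the letters CCGGAAG, a core recognised by ETS factors, stood in 25 members (42.4%) against 20.1%, and AAGATGG, a core of YY1 sites, in 9 (15.3%) against 8.48%. TATAAA was found in 6 members (10.2%) against 8.57%. CCGGAAG ends in the letters that begin AAGATGG, so these matches can overlap, and CTTTCC is itself part of a pyrimidine run; a match describes letters only. In the windows shown, the length of the run did not order the members by how they varied together. Rpl7a and Rps10 have long runs and followed the others weakly, while Rpl41 and Rps28 have only short runs and followed them closely. Apart from the paralogs, these windows were picked by how the members varied together. Run length was not set beside that measure over all 59 members.

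The cells differed in depth and in the markers they carried, and both touch the results below. Relative depth, estimated from the steps between low RPKM values (reads per kilobase of gene, scaled to the mapped reads of the cell), ran from 0.693 to 1.52 of the median cell in 47 cells, but was 0.0346 in cell 3 and 0.0462 in cell 7. These 2 shallow cells are kept apart throughout, and values are given with and without them. At 1 RPKM or more, the level called detected here, 3610 to 6510 genes were detected per cell. At least 3 of 11 nephron progenitor genes were detected in 46 cells and at least 3 of 10 stroma genes in 38, while 4 cells (7, 25, 27 and 50) held at least 3 genes of the ureteric bud or endothelial lists. The summed RPKM of a cell ran from 396959 to 526418.

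Ribosomal protein genes were detected in nearly every cell. Of the 79 members, 75 were detected in all 49 cells and 79 in all 47 cells of ordinary depth, against 557 of all 13093 genes (4.25%) in all 49. Of 801 other genes whose median reached that of the lowest member, called genes of like level below, 387 (48.3%) were detected in every cell. Most of these sit at the low end, and in bands of level the shares were close: 86.7% of members and 79.3% of other genes at 200 to 500 RPKM, 94.1% and 90.7% at 500 to 1000, and all of both at 1000 or more. The 4 members with a value of 0 had it only in a shallow cell: Rps10, Rpl12 and Rpl35a in cell 3 and Rpl39 in cell 7. In the 47 cells, 70 members were at or above 100 RPKM in every cell.

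Together the members made up a large share of the summed RPKM of a cell. That share was 11.5% in the lowest cell (cell 37), 16.0% in the median cell and 23.3% in the highest (cell 3). Without the shallow cells the highest was 20.8% (cell 50). Leaving out the highest member of each cell gave a median share of 15.4%. Of the 100 genes with the highest median, 51 were members, and 8 of the top 20.

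Median levels over the 49 cells spanned 40.2-fold between members, from 65.7 to 2643 RPKM, although most of the proteins enter the ribosome in equal number. The middle part of the distribution was narrower: the quartiles were 483 and 1163 RPKM, 24 members were at or above 1000 RPKM and 3 were below 100. The median member stood at 638 RPKM in the large subunit and 813 RPKM in the small subunit, with overlapping ranges.

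**Figure D1:**
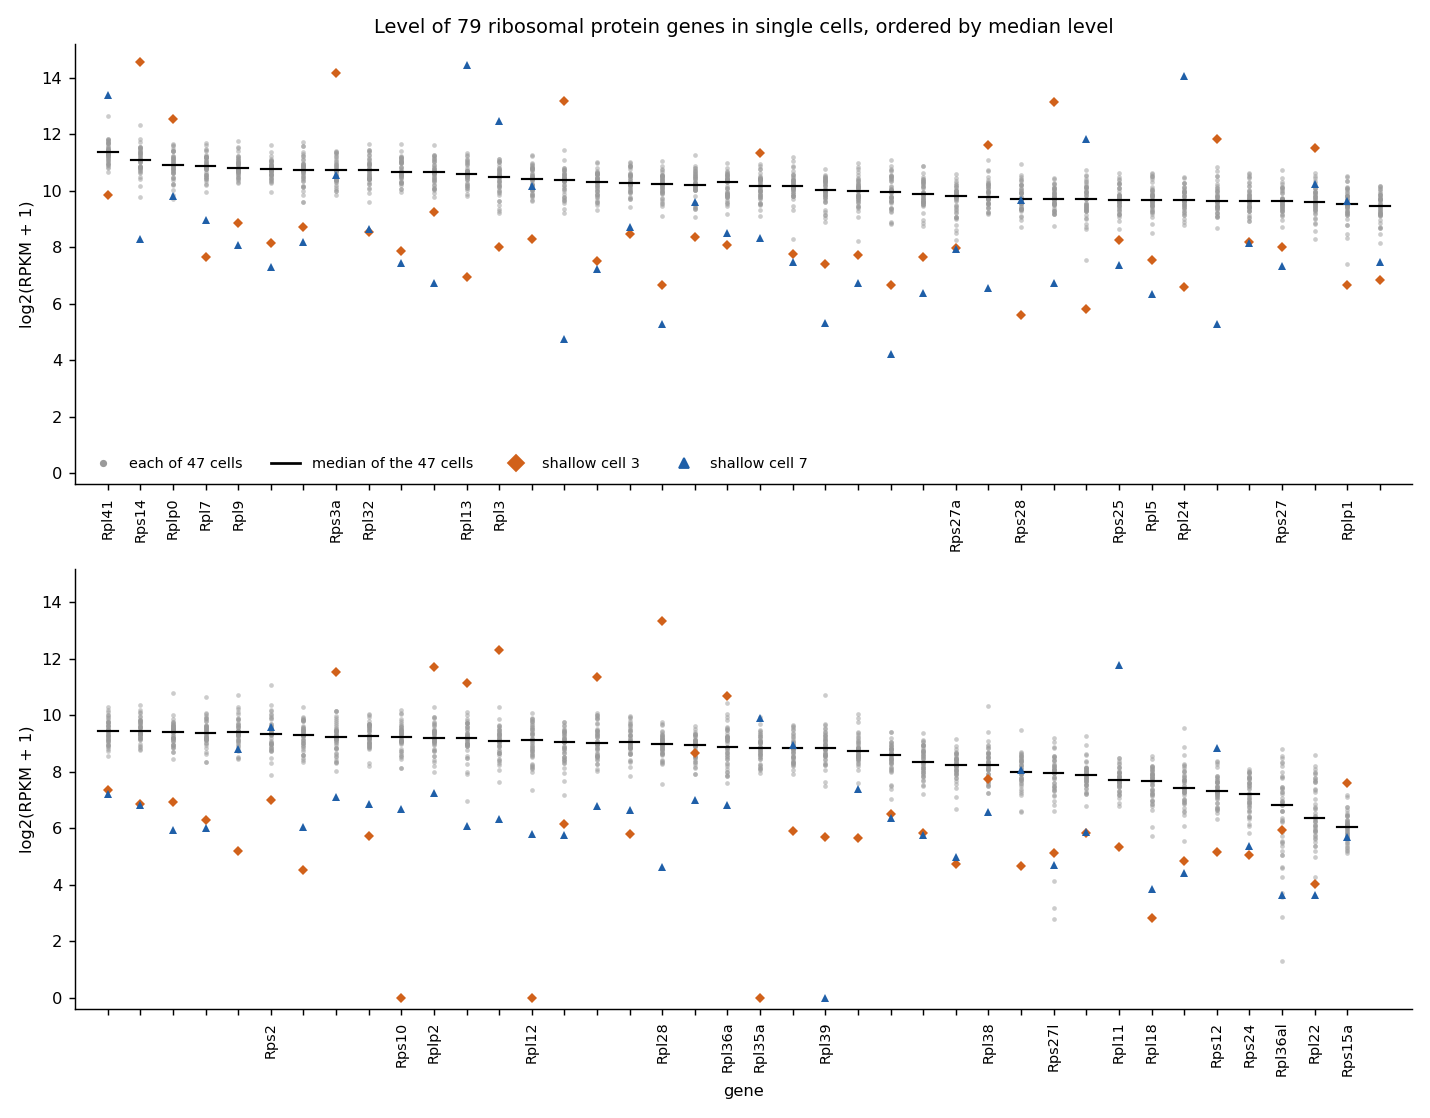
Level of each of the 79 ribosomal protein genes, as log2(RPKM + 1), in each of 47 cells (grey points), with their median (bar) and the shallow cells 3 (diamonds) and 7 (triangles); genes run from the highest to the lowest median, from Rpl41 (2643 RPKM) to Rps15a (65.7 RPKM). Some genes that the text describes are labelled. The grey points form a narrow band for most genes, and the shallow cells lie far above or below it for most genes.

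Among large subunit members the highest was Rpl41, a very short protein of the large subunit (chr10:127985166-127986224 in the mm9 coordinates of the table). Over the 47 cells it ran from 1627 RPKM through a median of 2643 to 6447. Rplp0, the base of the ribosomal stalk, ran from 827 through 1916 to 3254 RPKM. Its stalk partners, Rplp1 (170 through 742 to 1468 RPKM) and Rplp2 (255 through 592 to 1257 RPKM), were lower, and in all 47 cells Rplp0 was above both. The level of Rplp0 correlated over these cells with Rplp1 (Spearman rho 0.477) and Rplp2 (0.355). Rpl7 ran from 987 through 1860 to 3278 RPKM, and Rpl9, which neighbours the stalk base, from 1234 through 1777 to 3503.

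The lowest large subunit members were Rpl22 and Rpl36al, each with a wide range over the cells. Rpl22, a protein that is dispensable for translation in most tissues (chr4:151699987-151708180), ran from 18.4 through 82.1 to 390 RPKM over the 47 cells. Rpl36al (chr12:70283721-70285054), a paralog of Rpl36a, ran from 1.49 through 113 to 444 RPKM.

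In the small subunit Rps14, a protein of the platform near the decoding site, was highest, at 884 through 2199 to 5141 RPKM over the 47 cells. Rps15a (chr7:125247890-125259661) was the lowest of all members, at 34.1 through 65.7 to 144 RPKM and the highest of these values was below the lowest cell of Rps14. Rps24 (chr14:25309903-25315368) ran from 55.7 through 147 to 275 RPKM, and Rps12 from 79.0 through 157 to 337. Rps27a, which is made as a fusion to ubiquitin, had a median of 886 RPKM.

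Members whose loss in mice has known outcomes stood at different levels. Rpl24, reduced in the Belly spot and tail mutant, had a median of 812 RPKM over the 47 cells, and Rpl38, lost in the Tail short mutant, 306. Rps19 (845 RPKM) and Rps20 (879 RPKM), mutated in dark skin mice, Rps7 (692) and Rps6 (1261) were close to or above the median member. Rpl27a, mutated in a mouse with ataxia and dark feet, stood at 327 RPKM, and Rpl29, whose loss gives small mice, at 639. Rpl5 and Rpl11, which bind Mdm2 when ribosome assembly fails, differed, with medians of 823 and 207 RPKM. Their ranges met only at the ends: Rpl11 stayed at or below 359 RPKM in the 47 cells, and the lowest Rpl5 value was 358.

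Levels compared between genes depend on how reads and gene lengths were assigned, which bears on several of these values. Processed copies of ribosomal protein genes are common in the mouse genome. In the GENCODE M21 annotation, a median of 51.7% of the 50-base stretches of a member's transcript also occurred in transcripts of other genes, from 0 to 98.6% (Rps27). The sources used here do not say how the authors placed such reads. Over the 79 members, the shared part had a Spearman rho of 0.236 with the median level and of -0.0858 with the spread. The 2 members with the longest combined exons, Rps15a (6270 bases) and Rps24 (6256 bases), were among the 5 lowest. Over all members, however, that length and the level had a rho of only -0.185, and the part of length in the low values was not tested.

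The libraries kept no strand, so where genes on opposite strands share a stretch their reads cannot be told apart. In the table's coordinates, 24 members overlapped 27 other rows, of which 20 were small nucleolar RNA genes lying within 18 members. Whole gene spans were compared, introns included, so an overlap need not be a shared exon. Rpl36al lies within the span of 1110034A24Rik, and the levels of these 2 genes ran in opposite directions over the 47 cells (rho -0.529). The values of Rpl36al are uncertain for this reason.

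The spread between cells was small. The SD of log2(RPKM + 1) over the 47 cells had a median of 0.45 over the members, against 1.47 over the 801 other genes of like level, of which 13 (1.62%) were at or below 0.45. With the shallow cells the members' median SD was 0.71 and that of the other genes 1.59. Most of the other genes sit at the low end of the range, where spread is larger, so bands of level are the closer comparison. Between 200 and 500 RPKM the median SD was 0.49 for 15 members and 1.01 for 169 other genes. Between 500 and 1000 RPKM it was 0.46 for 34 members and 0.65 for 43 others, and at 1000 RPKM or more 0.41 for 24 members and 0.49 for 24 others. The difference from other genes therefore narrowed as the level rose.

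**Figure D2:**
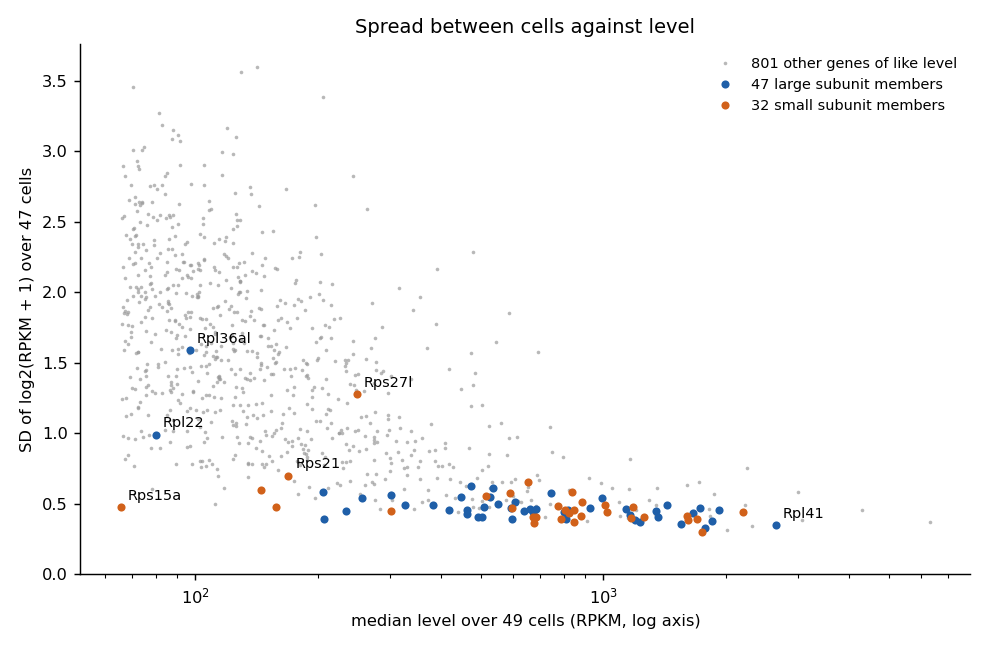
SD of log2(RPKM + 1) over 47 cells against the median level over 49 cells (log axis) for 47 large subunit members, 32 small subunit members and 801 other genes of like level. Most members lie along the lower edge of the cloud; Rpl36al (1.59), Rps27l (1.28) and Rpl22 (0.99) stand above the other members.

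Among the steadiest members were Rpl9, with an SD of 0.33, Rpl41 (0.35), Rpl13 (0.35) and Rps9 (0.36). The largest SDs were those of Rpl36al (1.59), Rps27l (1.28), Rpl22 (0.99), Rps21 (0.70) and Rps2 (0.66). Members with a higher median had a smaller SD (Spearman rho -0.558 over 79 members). Rps15a departed from that order: it had the lowest median and an SD of 0.47, close to the median member.

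The paralogs Rps27l and Rpl36al varied more than Rps27 and Rpl36a. Rps27l (chr9:66793925-66797316), a p53-responsive relative of Rps27, ran from 5.93 through 249 to 589 RPKM over the 47 cells, while Rps27 ran from 422 through 793 to 1722. The pair hardly varied together (rho 0.0193), and Rps27l was above Rps27 in 0 of 47 cells. Rpl36a, on the X chromosome, ran from 193 through 474 to 1389 RPKM, and its copy Rpl36al exceeded it in 2 of 47 cells (rho 0.109). For Rpl22 the relation was inverted, with its paralog outside the rule, Rpl22l1, the higher of the 2 in 38 of all 49 cells. Both shallow cells are among the 38. Rpl22 is known to restrain the expression of Rpl22l1. Rpl22l1 varied slightly less than Rpl22 (SD 0.86 against 0.99). The rho of this pair was -0.140. Rpl22l1 had a rho of 0.475 with the median level of the members, and Rpl22 a median rho of 0.0346 with the other members. These measures are not alike: for Rps27l the first was 0.362 and the second 0.172. Rpl7l1, a paralog of Rpl7, had a median of 54.4 RPKM and a rho of -0.0264 with Rpl7.

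The members varied together. Over the 47 cells the median Spearman rho over the 3081 pairs of members was 0.306, with 2907 pairs (94.4%) above 0. Pairs of other genes of like level had a median rho of 0.0128, and pairs of a member and such a gene 0.0116. All pairs share the same cells, depth and scaling. Within bands of level the median rho over members was 0.247 at 200 to 500 RPKM, 0.327 at 500 to 1000 and 0.383 at 1000 or more, and over other genes 0.0193, 0.0217 and 0.0610. Pairs within the small subunit (0.361) were somewhat higher than pairs within the large subunit (0.278), and pairs across the subunits lay between (0.313).

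**Figure D3:**
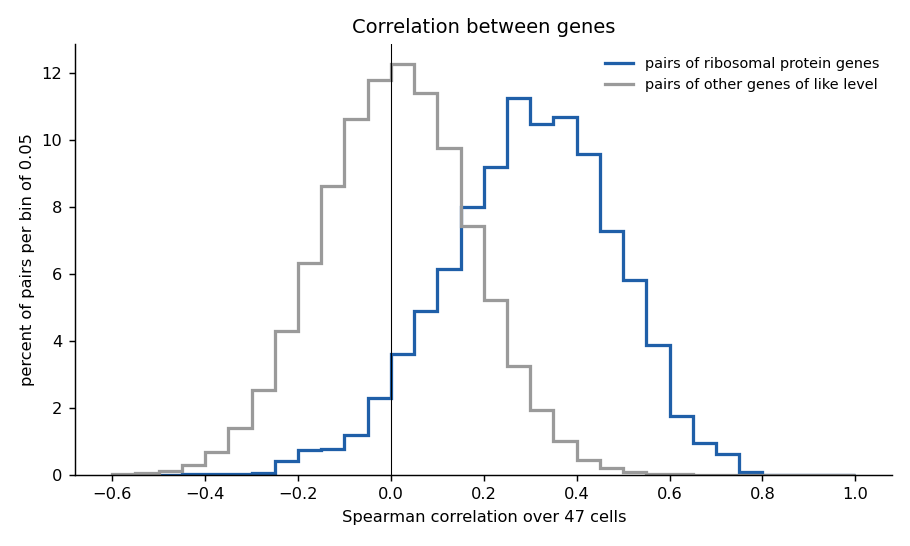
Distribution of Spearman correlations over 47 cells, as percent of pairs in bins of 0.05, for the 3081 pairs of ribosomal protein genes and for pairs of the 801 other genes of like level. The members' distribution centres on 0.306 and that of the other genes on 0.0128, and both overlap.

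Depth and scaling were set beside this coherence. Relative depth and the members' level (the median log2(RPKM + 1) over the 79 genes) had a rho of -0.0176 over the 47 cells. The level correlated with the summed RPKM of the cell (0.741), of which the members are a part. It also ran against the number of genes detected (-0.335). Scaling every cell to the same sum gave a median rho of 0.231 without the shallow cells, and removing the trend on genes detected from the ranks gave 0.308 over the 49 cells.

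Rpl41 followed the other members most closely, with a median rho of 0.481 over the other 78 genes. Rps25 (0.465), Rpl32 (0.463) and Rps28 (0.455) were also among the highest. Close pairs were Rpl32 with Rps26 (0.762) and Rps3a with Rpl32 (0.761). Rps24 was the only member with a median rho below 0 (-0.0600), and its lowest pairs were with Rpl34 (-0.413) and Rpl31 (-0.384). Rpl22 (0.0346), Rps10 (0.0875) and Rpl36al (0.0953) were the next lowest. Members with higher levels followed the others more closely (rho 0.381 between the median level and a member's median rho).

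Genes outside the set that rose and fell with it were sought over the 4476 genes with a median of at least 1 RPKM, which had a median rho of -0.0445 with the members' level. Closest was Npm1 (rho 0.711), nucleophosmin of the nucleolus, where ribosomes are assembled, followed by Gapdh (0.671), a glycolytic enzyme, and Fau (0.627), the fused ribosomal protein outside the rule. Hsp90ab1 (0.588) and Hspd1 (0.542), chaperones, and Tpt1 (0.559), a known oligopyrimidine-tract gene, were also among the 10 closest. Gm1974 gave the same rho as Tpt1 over the 47 cells (0.559) and over all 49 (0.609), and both lie on chromosome 14. Whether they count the same reads was not tested, so they may not be separate entries among the 10. The remaining predicted genes were Gm8580 (0.622) and Gm5148 (0.527). Crym (0.548), the gene whose reporter guided the dissection, was the eighth. At the other end stood Tuba1a (-0.614), a tubulin, Gm16141 (-0.614), Marcks (-0.614) and Fn1 (-0.591), which encodes fibronectin.

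Other genes of translation followed the ribosomal protein genes less closely. The 36 translation factors on the list had a median rho of 0.0262 with the members' level, with 20 above 0, and Eef1a1 reached the list's highest value of 0.486. The 46 ribosome biogenesis genes had a median of 0.0812, with 31 above 0, and the 21 other oligopyrimidine-tract genes present 0.282, with 16 above 0. The 74 genes of the mitochondrial ribosome had a median of -0.0302, with 33 above 0. The 15 housekeeping genes (0.0530), the p53 targets (-0.0417) and the Myc family (-0.116) had medians near or below 0. The lists differ in level, and some share genes, such as Eef1a1 and Npm1. Median levels were 130 RPKM for translation factors, 12.7 for biogenesis, 310 for tract genes and 19.6 for the mitochondrial ribosome. They were 1350 for housekeeping genes and 685 for the members. Spread between cells is larger at low levels, and the part of level in these values was not tested. The stroma list had the lowest median (-0.420, 0 of 10 above 0), then the mitotic list (-0.328, 0 of 15), while 10 of 11 nephron progenitor genes were above 0 (0.217).

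Cells with Six2 at 1 RPKM or more had slightly higher ribosomal protein genes than the others. The members' level ran from 9.20 through 9.61 to 10.29 in 26 cells with Six2 and from 8.95 through 9.36 to 9.92 in 21 without it, on the log2 scale and without the shallow cells. The mean difference was 0.22, less than the SD over cells in either class (0.24 and 0.27), and 23 of 26 Six2 cells were above the median of the others. Of the 79 members 75 were higher in Six2 cells, beside a background of 55.1% of all genes and 62.8% of genes of like level. Between 500 and 1000 RPKM 33 of 34 members and 28 of 43 other genes (65.1%) were higher. At 1000 RPKM or more 23 of 24 members and 18 of 24 other genes (75%) were higher. With the shallow cells the difference was 0.25 and 71 members were higher (background 55.0%). Without the shallow cells no member differed by 1 or more on the log2 scale in either direction, beside 7.77% of all genes that were higher and 3.80% that were lower by that much.

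Differences between members were small. Rpl18 had the largest difference (0.66), with a median of 241 RPKM (124 to 381) in Six2 cells and 149 (52.1 to 295) in the others. Rpl22 (0.56) and Rpl3 (0.54), a protein of the peptidyl transferase centre, followed. Rps24 (-0.18), Rps10 (-0.07) and Rpl10 (-0.04) were lowest. Ureteric bud genes summed to 0 to 163 RPKM in Six2 cells, where Cdh1 and Wnt11 were at 0, and 0 to 798 in the others, and endothelial genes to 0 to 15.6 and 0 to 1030. Leaving out the 4 cells with at least 3 such genes, while keeping shallow cell 3, gave a level difference of 0.13 with 66 members higher.

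Foxd1 status went with the opposite difference. The level ran from 8.95 through 9.36 to 10.29 in 22 cells with Foxd1 at 1 RPKM or more and from 9.12 through 9.64 to 9.93 in 25 without, a mean difference of -0.20 with SDs of 0.30 and 0.21. Lower in Foxd1 cells were 72 of 79 members, beside 42.6% of all genes and 45.4% of genes of like level. Between 500 and 1000 RPKM 32 of 34 members and 24 of 43 other genes (55.8%) were lower. At 1000 RPKM or more 22 of 24 members and 16 of 24 other genes (66.7%) were lower. With both shallow cells, which carried Foxd1, the difference was -0.38 and 75 members were lower (background 45.1%). Rpl3 (-0.42) was among the members with the lowest differences, and Rpl36al (0.16), Rps24 (0.12) and Rpl24 (0.11) had the highest. No member passed 1 in either direction, beside 6.59% of all genes higher and 2.67% lower by that much. The highest cell of all, cell 50, carried both Six2 (44.1 RPKM) and Foxd1 (36.4 RPKM). Cell 50 also had the highest summed RPKM (526418) and held 10 stroma, 7 nephron progenitor and 3 ureteric bud genes. Of the 47 cells its member profile was least like the median profile of the others (rho 0.775).

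Cells with only 1 of the 2 markers were further apart. In 18 cells with Six2 alone the level ran from 9.25 through 9.61 to 9.93, and in 14 cells with Foxd1 alone from 8.95 through 9.26 to 9.69. The mean difference was 0.32, with SDs over cells of 0.19 and 0.23, and 17 of 18 Six2 cells were above the Foxd1 median, although the ranges overlapped. The members made up 16.9% of the summed RPKM in the median Six2 cell and 13.7% in the median Foxd1 cell. Of 79 members 75 were higher with Six2, beside 48.3% of all genes and 55.4% of genes of like level. At 1000 RPKM or more, all 24 members were higher with Six2, as were 15 of 24 other genes.

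Rpl18 and Rpl3 were among the members that differed most between these classes. Rpl18 had a median of 241 RPKM (140 to 381) with Six2 alone and 151 (52.1 to 230) with Foxd1 alone, a difference of 0.75. Rpl3 stood at 1675 RPKM (1135 to 2231) against 1069 (592 to 1515), a difference of 0.71. The classes overlapped for both genes. Rps24 was the member furthest the other way (-0.22), with medians of 133 and 192 RPKM, then Rps10 (-0.07) and Rpl24 (-0.03).

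With shallow cell 7 among the Foxd1 cells the level difference was 0.47, with 75 members higher (background 49.4%), and 1 member, Rpl39, was higher by 1.19, beside 8.75% of all genes higher by 1 or more. Rpl39 is at 0 in cell 7, and without that cell no member differed by 1 or more, against 8.33% of all genes higher and 8.58% lower.

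**Figure D4:**
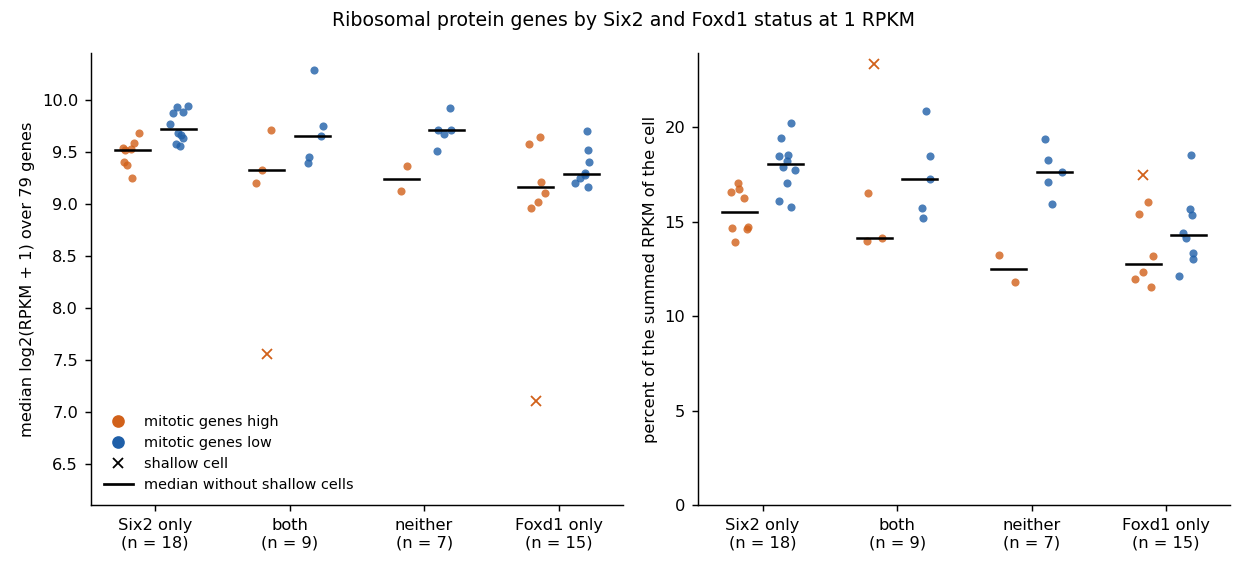
Members' level, as the median log2(RPKM + 1) over 79 genes (left), and their percent of the summed RPKM (right) in each cell, by Six2 and Foxd1 status at 1 RPKM and coloured by mitotic gene status; bars are medians without the shallow cells, which are drawn as crosses. Cells with Six2 alone lie above most cells with Foxd1 alone, and within each class the cells with mitotic genes low have the higher median.

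Cells with neither marker were not low. In 7 such cells the level ran from 9.12 through 9.67 to 9.92 and the share had a median of 17.1%. They were a mixture: cell 27 held 7 endothelial and 2 macrophage genes, and cells 22, 39 and 45 held 8 stroma genes each. Cells 32, 38 and 44 had Crym at 362, 222 and 88.9 RPKM and 6 or 7 nephron progenitor genes. In 8 cells of ordinary depth with both markers the level ran from 9.20 through 9.55 to 10.29. By median level the order was neither marker, Six2 alone, both and Foxd1 alone (9.26), and all ranges overlapped. By mean level the order was Six2 alone (9.63), both (9.59), neither marker (9.57) and Foxd1 alone (9.31), and 2 of the 7 cells with neither marker had mitotic genes high. By either measure, cells with Foxd1 alone were the lowest class.

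Ribosome assembly factors were mostly higher with Six2 alone. Of 46 ribosome biogenesis genes, 39 were higher, 22 by 1 or more, and 1 was lower by 1 or more, beside 48.3% of all genes higher and 8.33% higher by 1 or more. Their median difference was 0.95 and that of the ribosomal protein genes 0.37, but the list has a median level of 12.7 RPKM, where spread between cells is larger, so these sizes are not comparable. Fbl, the methyltransferase fibrillarin that modifies ribosomal RNA, was higher by 2.27, Ncl (nucleolin) by 1.06 and Npm1 by 0.83. Translation factors were higher in 29 of 36 (median 0.36), and mitochondrial ribosomal protein genes in 46 of 74 (median 0.28). The other oligopyrimidine-tract genes were higher in 19 of 21 (0.31), among them Tpt1 (0.49), Eef1a1 (0.47) and Fau (0.31). These lists share genes, so their counts are not separate. Eef1a1 is also on the translation factor list, and Npm1 is on both the biogenesis and the tract list. The p53 targets (3 of 8 higher, median -0.29) and Myc family genes (4 of 8 higher, 0.27) were mixed, and 11 of 15 housekeeping genes were higher (0.18), while Actb was lower (-0.31).

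These classes also differed in signs of other cells. At least 1 of 10 ureteric bud genes was detected in 7 of 18 cells with Six2 alone and in 11 of 15 with Foxd1 alone, with summed levels of 0 to 163 and 0 to 798 RPKM. With Six2 alone 5 of the 10 genes were detected in some cell, and Cdh1 and Wnt11 were at 0 in every cell. With Foxd1 alone all 10 were detected, but cell 25 held 9 of them and no other cell of that class more than 3. Any of 7 endothelial genes was detected in 2 and 1 cells (0 to 15.6 and 0 to 7.09 RPKM), with Cdh5, Pecam1, Esam and Tek at 0 in both classes. Either of 2 macrophage genes was detected in 0 and 1 cells, and the erythroid gene Alas2 in 2 and 2. The part of these genes in the result was not tested. Without the 4 cells that held at least 3 ureteric bud or endothelial genes the level difference was 0.34, with 76 members higher.

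Cells with mitotic genes high had lower ribosomal protein genes. Mitotic status was set by 15 genes of cell division such as Ccnb1, Plk1 and Top2a, with at least 8 at 10 RPKM or more counted as high. It is a range rather than a type: 6 cells lay within 1 gene of the limit. Without the shallow cells, which both counted as high, the level ran from 8.95 through 9.37 to 9.71 in 19 cells with mitotic genes high and from 9.16 through 9.66 to 10.29 in 28 others. The mean difference was -0.25, with SDs of 0.23 and 0.26, and 17 of 19 cells were below the median of the others. The members took 14.6% of the summed RPKM in the median cell with mitotic genes high and 17.2% in the other cells.

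Lower with mitotic genes high were 75 of 79 members, beside 34.7% of all genes and 35.2% of genes of like level, most of which were higher. Between 500 and 1000 RPKM all 34 members were lower, as were 23 of 43 other genes (53.5%). At 1000 RPKM or more all 24 members were lower, as were 10 of 24 other genes (41.7%). Rpl36al (-0.62) and Rps2 (-0.46) had the lowest differences. Rps2 ran from 134 through 521 to 990 RPKM with mitotic genes high and from 423 through 666 to 2149 in the others. Rpl22 (0.28), Rps27l (0.12) and Rps24 (0.12), all low or variable members, were the most positive. With the shallow cells the difference was -0.44, and 79 members were lower (background 37.3%). No member passed 1 in either direction, against 10.9% of all genes higher and 0.817% lower without the shallow cells.

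Cells with mitotic genes high also had more genes detected, 5872 in the median cell against 4703. Ureteric bud genes summed to 0 to 798 RPKM in them and 0 to 271 RPKM in the others, with any detected in 11 of 21 and 13 of 28 cells. All 10 genes were detected with mitotic genes high, where cell 25 held 9 of them and no other cell more than 3. In the other cells 5 were detected, and Ret, Cdh1 and Wnt11 were at 0. The part of genes detected or of ureteric bud genes in the result was not tested. Other translation genes are set beside the 65.2% of all genes that were higher with mitotic genes high. Mitochondrial ribosomal protein genes were higher with mitotic genes high in 64 of 74 (median 0.66), ribosome biogenesis genes in 33 of 46 (0.31) and translation factors in 25 of 36 (0.26), the last 2 shares being near that background. Fbl was higher by 0.75, while Npm1 (-0.25), Fau (-0.32) and Tpt1 (-0.18) were lower, like the members. The oligopyrimidine-tract genes outside the members, which include Npm1, Fau and Tpt1, were split, with 9 of 21 higher (-0.07).

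**Figure D5:**
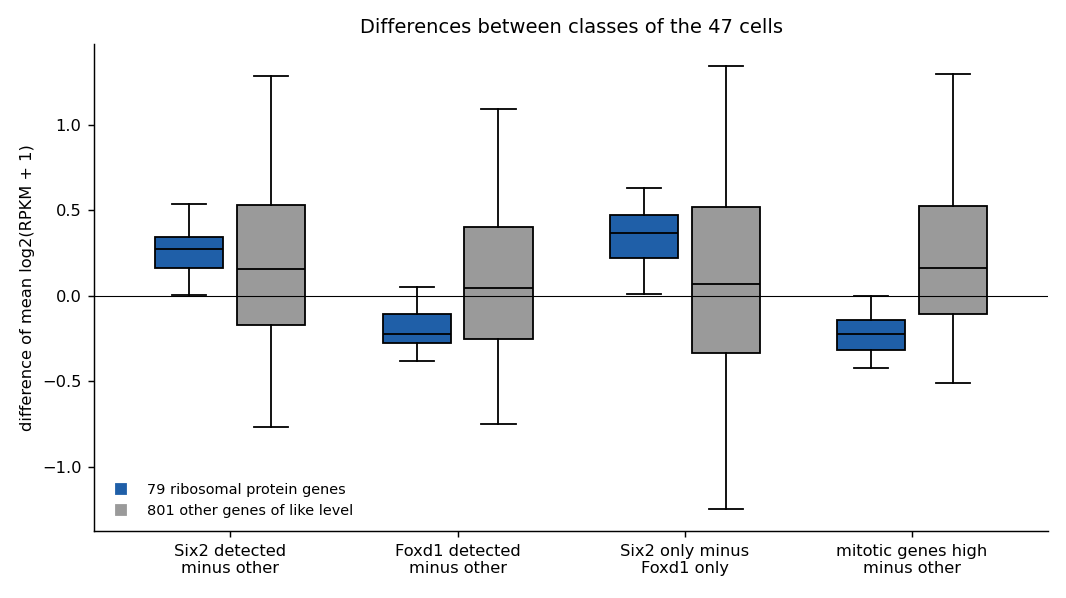
Difference in mean log2(RPKM + 1) between classes of the 47 cells for the 79 ribosomal protein genes (blue) and the 801 other genes of like level (grey); boxes are quartiles with the median, and whiskers reach the 5th and the 95th percentile. The members' boxes are narrow and lie on a single side of 0 in each comparison, with medians of 0.27, -0.22, 0.37 and -0.23, while those of the other genes span 0.

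Both differences were present within classes of the other. Among cells with mitotic genes high 73 members were higher in Six2 cells, beside 51.7% of all genes, and among the other cells 70, beside 52.7%. With Foxd1, 65 members were lower among cells with mitotic genes high (background 43.3%) and 73 among the others (42.2%). Among cells with mitotic genes high the level was 0.23 higher with Six2 alone (8 cells) than with Foxd1 alone (6 cells), with 70 members higher beside 46.8% of all genes. Among cells with mitotic genes low it was 0.40 higher (10 and 8 cells), with 75 members higher beside 45.7%. Within the cells with Six2 alone, mitotic genes high went with a level difference of -0.27 and 69 members lower beside 34.8% of all genes. Within cells with Foxd1 alone the difference was -0.10, with 52 members lower beside 35.9%, the smallest of these differences. Whether the differences themselves differ between classes was not tested, since these classes hold 6 to 10 cells of 1 sample. The highest median share, 18.0% of the summed RPKM, belonged to the 10 cells with Six2 alone and mitotic genes low. The lowest median share in a class of more than 2 cells, 12.8%, belonged to the 6 cells with Foxd1 alone and mitotic genes high, and 2 cells with neither marker and mitotic genes high had 12.5%.

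The 2 shallow cells had a distorted profile of ribosomal protein genes. Their level was 7.55 (cell 3) and 7.10 (cell 7) on the log2 scale, below all 47 other cells, while their share of the summed RPKM, 23.3% and 17.5%, was not low. In cell 3, 58 members were below and 17 above the whole range of the 47 cells, and in cell 7, 57 were below and 7 above. Such counts are given here for the members only, so they do not set the members apart from other genes. For comparison, a cell of ordinary depth set the highest value among the 47 in at most 29 members (cell 50) and the lowest in at most 13 (cell 14).

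A few members filled the share in the shallow cells. The 5 highest members held 60.4% of the ribosomal protein sum in cell 3 and 73.2% in cell 7, against 14.9 to 19.1% in the 47 cells. Cell 3 was led by Rps14 (24008 RPKM) and Rps3a (18482 RPKM), and cell 7 by Rpl13 (22208 RPKM) and Rpl24 (17085 RPKM). Rpl28 stood at 10501 RPKM in cell 3 and 23.7 in cell 7, with a median of 505 in the 47 cells. Rpl11, with a median of 207 RPKM, reached 3496 in cell 7.

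The members that stood out were not the same in the shallow cells. In 0 members were both cells higher than the median of the 47 by 1 or more on the log2 scale, and the rho between their profiles over the 79 members was 0.214. With the median profile of the 47 cells their rho was 0.571 (cell 3) and 0.484 (cell 7), against 0.775 to 0.966 for the other cells. As a mean of both cells, 56 of the 79 members were lower by 1 or more, beside 27.7% of all genes and 73.0% of genes of like level. The members' share was near that of genes of like level, so this drop was not particular to them. By the same measure 2 members were higher, among them Rps3a (1.67), beside 12.9% of all genes and 4.24% of genes of like level. The lowest differences were those of Rpl12 (-6.14), Rpl39 (-6.04) and Rps10 (-5.88), each at 0 in 1 of the cells. Cell 7 also held 3 of 10 ureteric bud genes, and the part of this in its profile was not tested.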

How the data were processed

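RNA of single cells was captured on a Fluidigm C1 chip, amplified with SMARTer chemistry and made into Nextera XT libraries, per the labels' protocols; there are no molecular identifiers and no strand. The authors deposited RPKM per gene and cell, per the file headers. The genome build mm9, TopHat 1.4.1 and DESeq are named in the submitters' processing notes; the sources used here name neither the read counter nor the annotation, nor say whether starts count from 0 or 1. The table holds genes above 3 RPKM in at least 1 cell, which was checked on the values, with another deposited count of such cells per gene. Total reads are unknown. Relative depth was read from genes under 8 RPKM shared with cell 1, as the most frequent value ratio, where equal small numbers of reads coincide. Cells under 0.1 of the median depth are called shallow.

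Levels are log2(RPKM + 1), which understates differences of low genes; a difference is between mean levels of cells, and 1 on this scale is the threshold named. Coherence is the median Spearman rho over pairs of genes. No cell was filtered, no doublet caller was run, and 0 value columns were left unused. Against doublets, per the labels' protocols, capture chambers were viewed under a microscope. Members, the gene lists (the translation, cell type and other lists of the text) and the alternatives were chosen with earlier results of these data known. Named in full are the 5 highest and lowest members by level and by spread, the 3 extreme members per comparison, paralogs, members with mouse mutants and the 10 genes most like the members' level. Results on some of these genes are not reported here. Shared sequence was counted in GENCODE M21 transcripts, which are on another build than the table. Scripts ran in Python 3.11.15 with numpy 2.4.6, pandas 2.3.3 and scipy 1.17.1 and were tested on simulated data.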

Additional observations from a re-analysis of the deposited data

How the results depend on the processing

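No paired analysis was possible because the cells form 1 group and cell numbers pair nothing. Every class difference in the members' level kept its direction under the alternatives run: 10 of 10 for Six2 status (0.13 to 0.37), 10 of 10 for Foxd1 status (-0.42 to -0.13), 10 of 10 for Six2 alone against Foxd1 alone (0.23 to 0.59) and 11 of 11 for mitotic status (-0.44 to -0.22). Alternatives that leave out cell 50, centre the cells, or stay within mitotic or Six2 classes were chosen after seeing the data. Classes by Foxd1 status are not among the 11 for mitotic status. Within them, without the shallow cells, the mitotic difference was -0.10 with Foxd1 alone, -0.18 with Foxd1 at 1 RPKM or more and -0.30 below it. Without the shallow cells the Foxd1 difference was -0.20 in place of -0.38 and the mitotic difference -0.25 in place of -0.44. Without the shallow cells the median SD was 0.45 in place of 0.71. Scaling each cell to a common sum moved the median member from 685 to 1568, by construction. Centring each cell on genes outside the list, most of them of lower level, gave a coherence of 0.705 in place of 0.318 over all cells. Without the shallow cells, where it was 0.306, centring on genes of like level gave 0.303, and centring on the members themselves 0.0253, a value that this centring brings near 0 by construction. With a pseudocount of 0.1, the count of all genes higher or lower by 1 moved most: for Six2 status from 957 and 472 to 2088 and 1201, for Foxd1 status from 710 and 393 to 1961 and 1051, for Six2 alone against Foxd1 alone from 1145 and 1018 to 2156 and 2166, and for mitotic status from 1153 and 135 to 2708 and 452. Over genes with a median of at least 1 RPKM these counts were 623 and 244, 404 and 237, 691 and 499, and 668 and 84, since fewer genes were compared. After scaling to a common sum they were 1300 and 752, 1160 and 602, and, for mitotic status, 1780 and 207. Setting Foxd1 status at 0.1 or 10 RPKM gave 805 and 615 genes lower, and classes within mitotic or Six2 status gave more calls for most counts (1593 and 1221 for Six2 status with mitotic genes high); the cause was not tested. Depth limits shallow-cell values most, and total reads are unknown.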
